A study of Homo sapiens with 6 samples.

Results

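Eph receptors and ephrins were examined in ARPE-19 cells, an established human retinal pigment epithelial line of wild-type genotype, after exposure to cinobufagin or to DMSO. Cinobufagin is a steroid of toad venom that inhibits the sodium pump, and it was given at 320 nM for 24 h to 3 samples. DMSO alone, the solvent control, was given for 24 h to the other 3 samples. Total RNA was extracted and sequenced, and expression was read as FPKM, which is corrected for the length of a gene's transcripts and for the size of the library. The members were 9 genes of 17945 in the deposited table, matched by Entrez gene ID. They comprised 5 receptors, EPHA2, EPHA4, EPHB2, EPHB3 and EPHB4, and 4 ligands, EFNA1, EFNA5, EFNB1 and EFNB2. The table held 22 genes of the whole family, 14 receptors and 8 ephrins, so 13 family genes lay outside the members. The cells are a single line, and the labels do not say whether samples were grown as separate cultures. The p-values therefore rest on the spread among the 3 samples of each group, which may be technical.

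Eph receptors are receptor tyrosine kinases whose ligands, the ephrins, are held on the surface of neighbouring cells, so that signalling needs cell contact. Binding starts forward signalling in the receptor-bearing cell and reverse signalling in the ephrin-bearing cell, and in epithelia and in the developing eye the system is known for repulsion, boundary formation and axon guidance. Class A ephrins are tied to the membrane by a lipid anchor and mostly bind EphA receptors, whereas class B ephrins span the membrane and mostly bind EphB receptors. EphA4 accepts ligands of both classes.

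Promoter sequences are shown for 4 members because their changes passed the test under every processing alternative run, EPHA2 and EPHB2 as receptors that fell and EPHA4 and EFNA5 as a receptor and a ligand that rose. The sequences are from RefSeq on GRCh38.p14, run 5′ to 3′ on the strand of the gene and end before the annotated start in RefSeq or in GENCODE 29, whichever lies further upstream. Capitals mark matches, on either strand, to the GC box GGGCGG, the cyclic AMP response element TGACGTCA or the TEAD motif GGAATG. They lie at chr1:16156088-16156319 (minus strand, EPHA2), chr1:22710589-22710838 (plus strand, EPHB2), chr2:221574203-221574452 (minus strand, EPHA4) and chr5:107670938-107671187 (minus strand, EFNA5).
EPHA2: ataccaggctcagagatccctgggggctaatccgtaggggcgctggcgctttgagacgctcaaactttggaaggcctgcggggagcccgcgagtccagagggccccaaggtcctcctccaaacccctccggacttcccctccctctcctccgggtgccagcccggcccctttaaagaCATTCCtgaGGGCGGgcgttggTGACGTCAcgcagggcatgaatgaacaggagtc
EPHB2: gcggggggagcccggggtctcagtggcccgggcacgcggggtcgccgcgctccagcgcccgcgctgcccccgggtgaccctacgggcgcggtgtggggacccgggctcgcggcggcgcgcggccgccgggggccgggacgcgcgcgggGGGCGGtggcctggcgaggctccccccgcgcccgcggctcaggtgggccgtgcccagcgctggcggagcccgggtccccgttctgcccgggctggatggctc
EPHA4: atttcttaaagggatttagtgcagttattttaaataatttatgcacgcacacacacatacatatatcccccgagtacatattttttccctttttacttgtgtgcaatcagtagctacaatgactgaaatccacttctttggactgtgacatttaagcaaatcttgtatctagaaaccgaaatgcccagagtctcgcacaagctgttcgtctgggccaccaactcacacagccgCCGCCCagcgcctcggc
EFNA5: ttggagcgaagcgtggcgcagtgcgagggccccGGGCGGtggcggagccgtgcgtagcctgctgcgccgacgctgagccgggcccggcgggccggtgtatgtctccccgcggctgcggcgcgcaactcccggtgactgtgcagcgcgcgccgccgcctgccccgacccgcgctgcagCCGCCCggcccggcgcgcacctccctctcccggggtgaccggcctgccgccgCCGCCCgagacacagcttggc

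Matches were sought in 11 promoter windows of the 9 members, each of 300 bases from 250 before to 50 after the start. EPHA4 and EPHB2 each had a pair of windows, and those of EPHB2 differ by a shift of a single base. All 11 windows held the GC box, against 45.0% of the 35116 promoter windows in the table. Only the EPHA2 window held TGACGTCA, which 1.85% of all windows hold, and only it held GGAATG, which 14.0% of all windows hold. The TATA box sequence TATAAA was found in the EFNB2 window alone, on the strand opposite to the gene, against 11.5% of all windows on either strand. The AP-1 motif TGACTCA and the E-box CACGTG were found in 0 of the 11 windows, against 4.95% and 7.26% of all. No 2 of these matches overlapped in a printed sequence. GC content of the members' windows ran from 43.0% to 83.0%, with 58.7% as the median of all windows. The outer EPHA4 window, whose part before the start is printed here, was the lowest, and the EPHB2 windows were the highest. That EPHA4 window had 43.0% GC and 1 GC box match. The inner EPHA4 window, at chr2:221572255-221572554, lies within the annotated gene and is not printed. It had 74.3% GC and 5 GC box matches. Which EPHA4 start these cells use was not tested. All members' windows except the outer EPHA4 window had a GC content of 63.7% or more, above the median of all windows. The part of GC content in the GC box matches was not tested. A match is only a run of letters, and binding was not measured.

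Cinobufagin-treated cells had lower transcript levels of the receptors EPHA2, EPHB2 and EPHB4 and of the ligand EFNB2, and higher levels of the receptor EPHA4 and of the ligands EFNA5 and EFNB1. EFNA1 did not pass the test, and EPHB3 was listed at or near 0 in every library. The changes were modest. EPHB2, 1.49-fold lower, had the largest among the members on the scale of log2 of FPKM + 1, which understates low genes such as EFNB1. Of the 9 members, 8 passed the filter of at least 1 FPKM in at least 3 libraries. Among these, 3 rose, 4 fell and 1 did not pass (limma on log2 of FPKM + 1, Benjamini-Hochberg adjusted p under 0.05). Only 2 members fell when libraries were rescaled to a common sum. Over all 11599 genes tested, 39.2% rose, 28.4% fell and 67.7% did either, so a call was common in this experiment. The groups did not overlap in 7 of the 8 members tested, against 70.8% of all genes tested. EFNB1 entered the test only through the cinobufagin libraries, and its place in these counts follows in part from the filter. The median log2 fold change of the 8 was -0.05, beside 0.06 over all genes tested. Because FPKM is corrected for the size of the library, all changes given here are relative to the other RNA of a library, not amounts per cell. In bulk RNA, fewer cells that express a gene and less of its RNA per cell cannot be told apart.

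**Figure D1:**
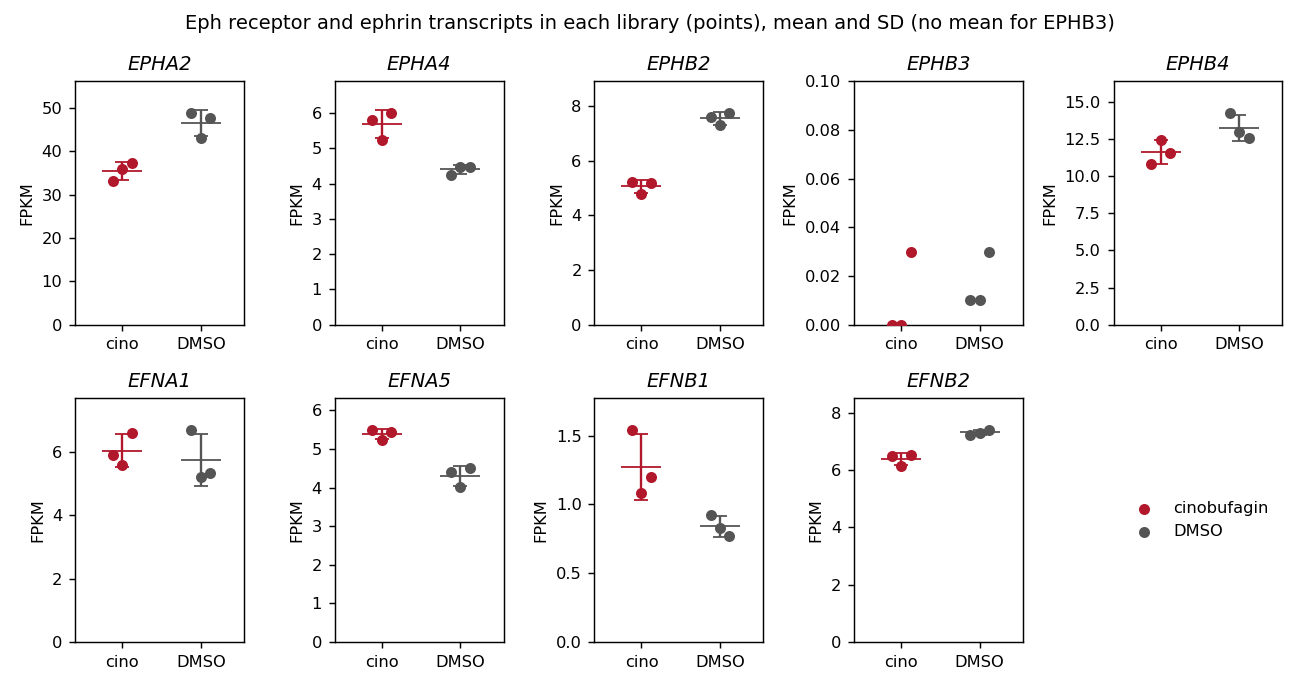
FPKM of the 9 members in the 3 cinobufagin (red, left) and 3 DMSO (grey, right) libraries; points are libraries, and the horizontal line and bar are the mean and SD of 3. Each panel has its own linear scale from 0. EPHA2, EPHB2, EPHB4 and EFNB2 lie lower in cinobufagin, EPHA4, EFNA5 and EFNB1 lie higher, EFNA1 overlaps, and EPHB3, shown without a mean, is at 0.03 FPKM or less.

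Among the receptors, EPHA2 was by far the most abundant. EphA2 is the main ephrin-A receptor of many epithelia and can also signal without ligand after serine phosphorylation. The gene (gene ID 1969) lies on the minus strand of chromosome 1 at 16124337 to 16156087 (GENCODE 29, GRCh38, the source of all gene positions given here). It had 33.3, 36.0 and 37.3 FPKM in cinobufagin libraries 1 to 3, against 48.9, 43.1 and 47.8 FPKM in DMSO libraries 1 to 3. Every cinobufagin library lay below every DMSO library. The mean was 35.5 ± 2.05 FPKM in cinobufagin libraries and 46.6 ± 3.07 FPKM in DMSO libraries (SD, n = 3 each). EPHA2 thus fell by 0.38 on the log2 scale (SE 0.06, 95% interval -0.51 to -0.26, limma adjusted p = 0.000112). A change of larger size was seen in 33.0% of all genes tested. The 3 genes tested whose values across the 6 libraries ran closest to those of EPHA2 were MMP15, SLC75A1 and SUN2. Their root mean square differences from it, on the log2 scale and with each gene centred on its own mean, were 0.0158, 0.0264 and 0.0266.

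EPHB2 encodes a receptor for class B ephrins that also binds ephrin-A5. The gene (gene ID 2048, chromosome 1, 22710839 to 22921500, plus strand) had 5.21, 4.78 and 5.18 FPKM in cinobufagin libraries, against 7.61, 7.29 and 7.75 FPKM in DMSO libraries. The groups were wide apart relative to their spread. The mean was 5.06 ± 0.240 FPKM in cinobufagin and 7.55 ± 0.236 FPKM in DMSO libraries (SD, n = 3 each). EPHB2 fell by 0.50 on the log2 scale (SE 0.06, 95% interval -0.64 to -0.36, limma adjusted p = 3e-05). Changes of larger size were seen in 21.7% of the genes tested.

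EPHB4, the receptor that prefers ephrin-B2 and marks veins during vessel development, was second in level. It lies on chromosome 7 at 100802565 to 100827521 on the minus strand (gene ID 2050). Its values were 10.8, 12.4 and 11.5 FPKM in cinobufagin libraries, against 14.2, 12.9 and 12.6 FPKM in DMSO libraries. The groups did not overlap, but the highest cinobufagin library, at 12.4 FPKM, came close to the lowest DMSO library, at 12.6 FPKM. EPHB4 fell by 0.18 on the log2 scale (SE 0.07, 95% interval -0.32 to -0.03, limma adjusted p = 0.0310). That call was lost without cinobufagin replicate 1 (log2 change -0.13 with a limma adjusted p = 0.124), without cinobufagin replicate 3 (-0.18 and 0.0747) and without DMSO replicate 1 (-0.13 and 0.10). Its adjusted p lay between 0.0115 and 0.124 under the alternatives run. It was lost as well when libraries were rescaled to a common sum (adjusted p = 0.0550) and with no filter on low values (0.0618). EPHB4 overlaps SLC12A9 on the opposite strand, and the strand setting of the counting was not given in the sources used here. SLC12A9 was at 6.92 ± 0.277 FPKM in cinobufagin and 6.48 ± 0.809 FPKM in DMSO libraries (SD, n = 3 each), and its part in the EPHB4 value was not tested. GENCODE 29 also lists antisense RNAs across EPHA2, EPHA4, EPHB2 and EFNB2, with the same limit.

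EPHA4 went the other way. Its product is the family's most promiscuous receptor. The gene (gene ID 2043, chromosome 2, 221418027 to 221574202, minus strand) had 5.82, 5.25 and 6.01 FPKM in cinobufagin libraries, against 4.26, 4.48 and 4.47 FPKM in DMSO libraries. All cinobufagin libraries lay above all DMSO libraries, and the SD was 0.396 FPKM in cinobufagin and 0.124 FPKM in DMSO libraries. EPHA4 rose by 0.31 on the log2 scale (SE 0.07, 95% interval 0.16 to 0.46, limma adjusted p = 0.00204). EPHB3 (gene ID 2049, chromosome 3, 184561784 to 184582409, plus strand), known with EPHB2 for the sorting of cells in the intestinal crypt, was not tested. It was listed at 0, 0 and 0.03 FPKM in cinobufagin libraries, against 0.01, 0.01 and 0.03 FPKM in DMSO libraries.

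Of the ligands, EFNB2 was the most abundant member. Ephrin-B2 is a transmembrane ligand of EphB4 and EphA4 that marks arteries during vessel development. The gene (gene ID 1948, chromosome 13, 106489731 to 106535662, minus strand) had 6.51, 6.16 and 6.52 FPKM in cinobufagin libraries, against 7.24, 7.30 and 7.40 FPKM in DMSO libraries. The groups did not overlap, and the difference was small. EFNB2 fell by 0.17 on the log2 scale (SE 0.06, 95% interval -0.30 to -0.04, limma adjusted p = 0.0253). The call was lost without cinobufagin replicate 2 (log2 change -0.15 with a limma adjusted p = 0.0910), without DMSO replicate 2 (-0.17 and 0.0560) and without DMSO replicate 3 (-0.16 and 0.0720). Its adjusted p lay between 0.0076 and 0.0910 under the alternatives run. It was lost as well when libraries were rescaled to a common sum (adjusted p = 0.0661). The genes tested that ran closest to EFNB2 across the 6 libraries were ZNF706, SYTL2 and VAMP2, with root mean square differences of 0.0179, 0.0189 and 0.020 on the same centred log2 scale.

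EFNA5 encodes ephrin-A5, a lipid-anchored ligand that helps set up the map of retinal axons in the brain. The gene (gene ID 1946, chromosome 5, 107376889 to 107670895, minus strand) had 5.49, 5.24 and 5.45 FPKM in cinobufagin libraries, against 4.39, 4.02 and 4.51 FPKM in DMSO libraries. Its cinobufagin libraries all lay higher, with an SD of 0.134 FPKM in cinobufagin and 0.255 FPKM in DMSO libraries. EFNA5 rose by 0.27 on the log2 scale (SE 0.07, 95% interval 0.12 to 0.42, limma adjusted p = 0.00400).

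EFNB1 encodes ephrin-B1, a transmembrane ligand whose loss causes craniofrontonasal syndrome. It was low in these cells (gene ID 1947, chromosome X, 68828997 to 68842147, plus strand), with 1.54, 1.08 and 1.20 FPKM in cinobufagin libraries, against 0.92, 0.83 and 0.77 FPKM in DMSO libraries. The groups did not overlap, but cinobufagin replicate 1 stood above the other two of its group. EFNB1 rose by 0.30 on the log2 scale (SE 0.10, 95% interval 0.09 to 0.51, limma adjusted p = 0.0158). Without cinobufagin replicate 1 the call was lost (log2 change 0.22 with a limma adjusted p = 0.0676, the alternatives spanning 0.0038 to 0.0676). With a pseudocount of 0.1 in place of 1, which shrinks low values less, the log2 fold change was 0.54.

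EFNA1 encodes ephrin-A1, a lipid-anchored ligand of EphA2 first found as a gene induced by tumour necrosis factor. It had 5.89, 5.60 and 6.61 FPKM in cinobufagin libraries, against 6.69, 5.20 and 5.34 FPKM in DMSO libraries (gene ID 1942, chromosome 1, 155127460 to 155134857, plus strand). DMSO replicate 1 was the highest of all 6, so the groups overlapped. The log2 fold change was 0.07 (SE 0.09, 95% interval -0.13 to 0.26, limma adjusted p = 0.542), an interval that covers a small change in either direction.

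**Figure D2:**
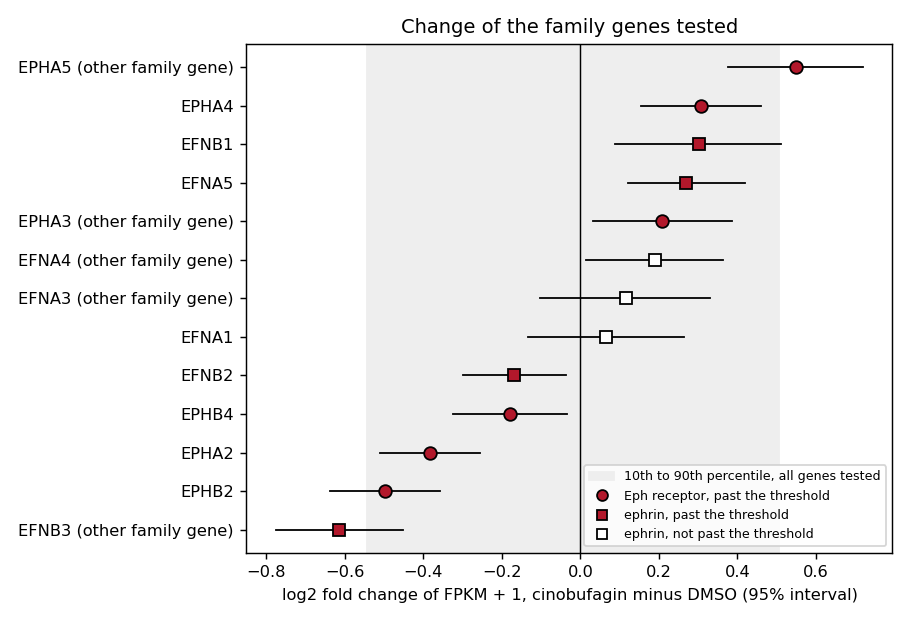
Log2 fold change of FPKM + 1 (cinobufagin minus DMSO) with its 95% interval for the 13 family genes tested, circles for receptors and squares for ephrins, filled where the limma adjusted p was under 0.05. Most lie within the grey band of the 10th to 90th percentile of all genes tested, -0.54 to 0.51; EPHA5 lies above it and EFNB3 below it.

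Other family genes also moved both ways. Of 13, 5 passed the filter, and 2 of these rose, 1 fell and 2 did not pass. EFNB3, a transmembrane ephrin known as a midline barrier for axons in the mouse, had 8.85, 7.32 and 7.63 FPKM in cinobufagin libraries, against 13.4, 11.9 and 12.6 FPKM in DMSO libraries. It fell 1.6-fold (log2 fold change -0.61, SE 0.07, limma adjusted p = 1.73e-05). EPHA5, a receptor of class A ephrins best known from the nervous system, had 4.20, 4.73 and 3.97 FPKM in cinobufagin libraries, against 2.45, 2.73 and 2.68 FPKM in DMSO libraries. It rose 1.64-fold (log2 fold change 0.55, SE 0.08, limma adjusted p = 7.2e-05). Neither pair of groups overlapped. EFNB3 changed more than EPHA5 on the scale of log2 of FPKM + 1, and EPHA5 changed more in the ratio of mean FPKM, with a pseudocount of 0.1 (log2 fold change 0.69 for EPHA5 and -0.67 for EFNB3) and after rescaling to a common sum (0.63 for EPHA5 and -0.62 for EFNB3).

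EPHA3, another receptor of class A ephrins, was at 1.80 ± 0.0611 FPKM in cinobufagin and 1.43 ± 0.127 FPKM in DMSO libraries (SD, n = 3 each). It rose by 0.21 on the log2 scale (limma adjusted p = 0.0362, the alternatives spanning 0.00834 to 0.110). That call was lost without cinobufagin replicate 1, 2 or 3 (adjusted p = 0.0661, 0.0620 and 0.101), without DMSO replicate 1 or 3 (0.0764 and 0.110), after median centring (0.0831) and with a replicate block (0.0561). With a pseudocount of 0.1 its log2 fold change was 0.32. EFNA4 was at 4.26 ± 0.215 FPKM in cinobufagin and 3.63 ± 0.379 FPKM in DMSO libraries and did not pass (limma adjusted p = 0.0528). It passed without DMSO replicate 1 (log2 change 0.24 with a limma adjusted p = 0.0239), and also with no trend, with quantile normalization and after rescaling to a common sum, the alternatives spanning 0.0239 to 0.214. EFNA3, at 2.74 ± 0.473 FPKM in cinobufagin and 2.44 ± 0.210 FPKM in DMSO libraries, did not pass either (limma adjusted p = 0.322). EFNA1, EFNA3 and EFNA4 are neighbours on chromosome 1, and these were the 3 family genes tested that did not pass. A link between position and change was not tested. GENCODE 29 lists a locus that overlaps both EFNA3 and EFNA4 on the same strand, so the division of their reads is uncertain.

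The remaining 8 family genes stayed under the filter. EPHA6 had 0.77, 0.83 and 0.78 FPKM in cinobufagin libraries, against 0.52, 0.13 and 0.62 FPKM in DMSO libraries, which did not overlap. EPHB1 reached at most 0.32 FPKM and EPHA10, a receptor without kinase activity, at most 0.21 FPKM in any library. EFNA2, EPHA1 and EPHA8 reached at most 0.14, 0.10 and 0.03 FPKM. EPHA7 and EPHB6, the other receptor without kinase activity, were listed at 0 in all 6 libraries.

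Since FPKM is per transcript length, levels may be set side by side between genes. In cinobufagin libraries the order of the members by mean FPKM was EPHA2, EPHB4, EFNB2, EFNA1, EPHA4, EFNA5, EPHB2, EFNB1 and EPHB3. In DMSO libraries it was EPHA2, EPHB4, EPHB2, EFNB2, EFNA1, EPHA4, EFNA5, EFNB1 and EPHB3. The library ranges of EFNB2 and EFNA1, of EFNA1 and EPHA4, and of EPHA4 and EFNA5 overlapped in cinobufagin, and those of EPHB2 and EFNB2 and of EPHA4 and EFNA5 overlapped in DMSO. All other neighbours lay apart. EPHB2 ranked above EFNB2, EFNA1, EPHA4 and EFNA5 in DMSO libraries, and below all 4 in cinobufagin libraries.

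With genes ranked by mean FPKM over all 6 libraries, level and direction ran together within the family. The 5 family genes with the highest mean FPKM over all 6 libraries, EPHA2, EPHB4, EFNB3, EFNB2 and EPHB2, all fell. The 8 others tested all had positive log2 fold changes, and 5 of them rose. EFNB1, 1 of these, entered the test only through the cinobufagin libraries and so could only be higher in them. This division was noticed after the values were seen and was not tested. It held by the means of DMSO libraries alone, but not by those of cinobufagin libraries alone. There EPHB2, at 5.06 FPKM, lay below EFNA1, EPHA4 and EFNA5, at 6.03, 5.69 and 5.39 FPKM. The calls of EPHB4 and EFNB2 were lost under some alternatives, as given above. Among all genes tested, 42.3% rose and 28.4% fell at or above the level of EPHB2, 6.30 FPKM, while 32.0% rose and 28.5% fell below it.

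The family's summed level and makeup differed accordingly. The 14 receptors summed to 62.3, 66.2 and 67.2 FPKM in cinobufagin libraries, against 79.8, 72.6 and 77.7 FPKM in DMSO libraries. The mean sum was 65.25 FPKM in cinobufagin and 76.68 FPKM in DMSO libraries. Most of that difference was carried by EPHA2, with means of 35.5 and 46.6 FPKM. EPHA2 made up 54.4 ± 1.03% of the receptor sum in cinobufagin and 60.7 ± 1.16% in DMSO libraries (SD, n = 3 each). EPHA4 made up 8.74 ± 0.723% in cinobufagin and 5.76 ± 0.415% in DMSO libraries, and EPHA5 made up 6.60 ± 0.634% in cinobufagin and 3.43 ± 0.345% in DMSO libraries. The share of EPHB4 overlapped between the groups, at 17.8 ± 0.873% in cinobufagin and 17.3 ± 0.942% in DMSO libraries.

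The ephrins summed to 35.3, 33.1 and 33.9 FPKM in cinobufagin libraries, against 39.1, 35.3 and 36.7 FPKM in DMSO libraries. The groups all but touched, at 35.25 FPKM in cinobufagin library 1 and 35.28 FPKM in DMSO library 2. The sums parted by class. The 5 class A ephrins were at 18.5 ± 0.124 FPKM in cinobufagin and 16.2 ± 1.14 FPKM in DMSO libraries, and the 3 class B ephrins were at 15.6 ± 1.19 FPKM in cinobufagin and 20.8 ± 0.765 FPKM in DMSO libraries (SD, n = 3 each). Class A thus exceeded class B in each cinobufagin library and class B exceeded class A in each DMSO library. EFNB3, whose share was 23.2 ± 1.63% in cinobufagin and 34.2 ± 0.317% in DMSO libraries, carried most of the class B difference. Single genes did not all follow their class. Of the class A ephrins tested, EFNA5 rose, while EFNA1, EFNA3 and EFNA4 had positive log2 fold changes that did not pass. In class B, EFNB1 rose while EFNB2 and EFNB3 fell. The sums are descriptions with no test.

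**Figure D3:**
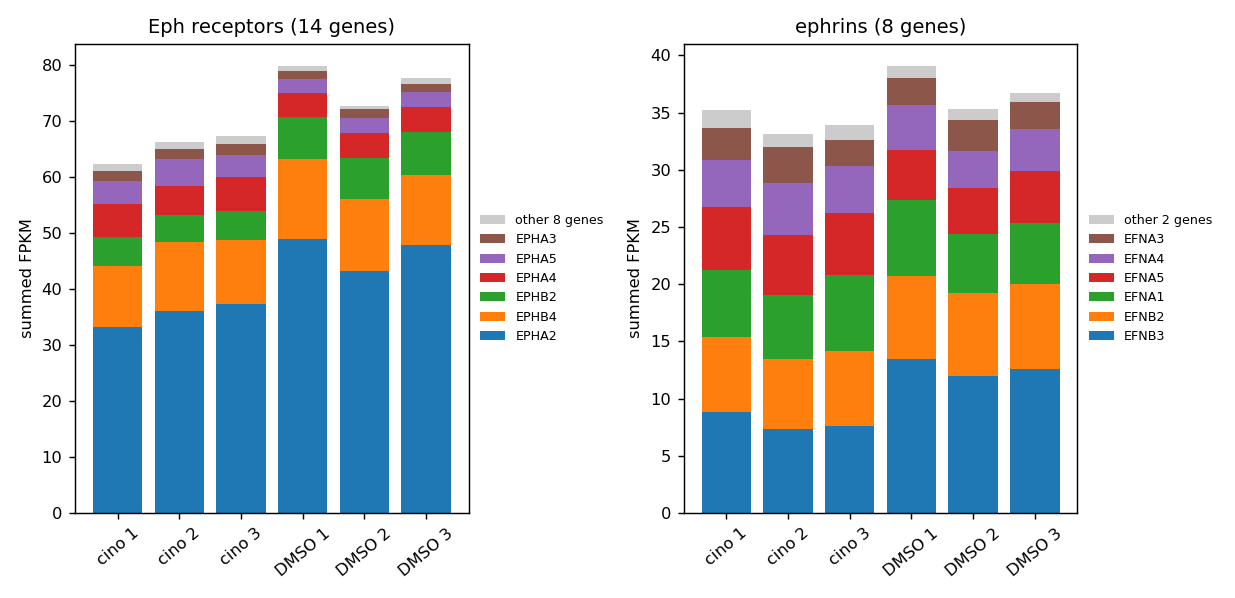
Summed FPKM of the 14 Eph receptor genes (left) and the 8 ephrin genes (right) in each library, stacked by gene, cinobufagin libraries before DMSO libraries; the 6 most abundant genes of each class are named. EPHA2 is the largest part of every receptor column, and the EFNB3 part is smaller in the cinobufagin libraries.

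Genes that act with Eph receptors and ephrins moved both ways. Of 44 effectors of forward signalling, 39 were tested, and 17 rose, 13 fell and 9 did not pass, a share of 43.6% higher and 33.3% lower beside 39.2% and 28.4% of all genes tested. Their median log2 fold change was 0.09. The largest falls were those of 2 cytoplasmic tyrosine kinases. ABL2, which remodels actin, was at 25.95 ± 0.497 FPKM in cinobufagin and 51.4 ± 1.35 FPKM in DMSO libraries (log2 fold change -0.96, SE 0.04, limma adjusted p = 5.79e-09). SRC, which is recruited to active Eph receptors and to clustered ephrins, was at 15.0 ± 0.827 FPKM in cinobufagin and 29.1 ± 1.76 FPKM in DMSO libraries (log2 fold change -0.91, SE 0.06, limma adjusted p = 1.12e-07). RIN1, a regulator of Ras and Rab5 signalling, fell by 0.80, and NGEF fell by 0.70 on the log2 scale. NGEF had at least 1 FPKM in DMSO libraries only, so its place among the falls follows in part from the filter.

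The effectors with the largest rises were SIPA1L1, a GTPase-activating protein for Rap that binds EphA4 in neurons, DOCK4, PIK3R1 and LIMK1. SIPA1L1 was at 6.37 ± 0.101 FPKM in cinobufagin and 3.47 ± 0.0600 FPKM in DMSO libraries (log2 fold change 0.72, SE 0.06, limma adjusted p = 1.33e-06). DOCK4, an exchange factor for Rac, rose by 0.59. It had at least 1 FPKM in cinobufagin libraries only, so its place among the rises follows in part from the filter. PIK3R1, the regulatory subunit of phosphoinositide 3-kinase, rose by 0.56, and LIMK1, which phosphorylates cofilin, rose by 0.49 on the log2 scale. Every gene named here from this list and from the 4 described next had a limma adjusted p of 0.00189 or less.

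Of 12 partners of reverse signalling, 11 were tested, and 3 rose, 4 fell and 4 missed the threshold. That is 27.3% higher and 36.4% lower, beside 39.2% and 28.4% of all genes tested. Their median log2 fold change was -0.05. STAT3 rose by 0.62 and the phosphatase PTPN13, which binds the tail of B ephrins and dephosphorylates it, rose by 0.52. DVL1 fell by 0.45 and RGS3, which links ephrin-B to G protein signalling, fell by 0.41 on the log2 scale. Of 21 genes of receptor turnover, 19 were tested, and 10 rose, 7 fell and 2 missed the threshold. That is 52.6% higher and 36.8% lower, beside the same 39.2% and 28.4%. Their median log2 fold change was 0.15. NCSTN, a subunit of gamma-secretase, was at 117 ± 1.79 FPKM in cinobufagin and 81.5 ± 2.07 FPKM in DMSO libraries (log2 fold change 0.52, SE 0.04, limma adjusted p = 3.48e-07). PTPRJ, a receptor phosphatase, rose by 0.50, the matrix metalloproteinase MMP2 fell by 0.76 and the rhomboid protease RHBDL2 fell by 0.56 on the log2 scale.

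Other guidance genes and receptor kinases held single changes larger than any in the family. Of 52 semaphorin, plexin, Slit, Robo and netrin genes and their kin, 33 were tested, and 13 rose, 14 fell and 6 missed the threshold. That is 39.4% higher and 42.4% lower, beside 39.2% and 28.4% of all genes tested. Their median log2 fold change was -0.03. NRP1, a co-receptor of semaphorins, rose by 0.96 and SLIT2 by 0.93, while SEMA4A fell by 1.25 and ROBO4, at 1 FPKM or more in DMSO libraries only, fell by 1.28 on the log2 scale. Of 42 other receptor tyrosine kinases, 19 were tested, and 6 rose, 8 fell and 5 missed the threshold. That is 31.6% higher and 42.1% lower, beside the same 39.2% and 28.4%. Their median log2 fold change was 0.01. The engulfment receptor MERTK rose by 0.69 and IGF1R by 0.46, whereas ERBB4 fell by 0.96 and MST1R, at 1 FPKM or more in DMSO libraries only, fell by 0.95 on the log2 scale. ROBO4 and MST1R entered the test only through the DMSO libraries, so their places among the falls follow in part from the filter. Whether the family differed from these lists was not tested.

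**Figure D4:**
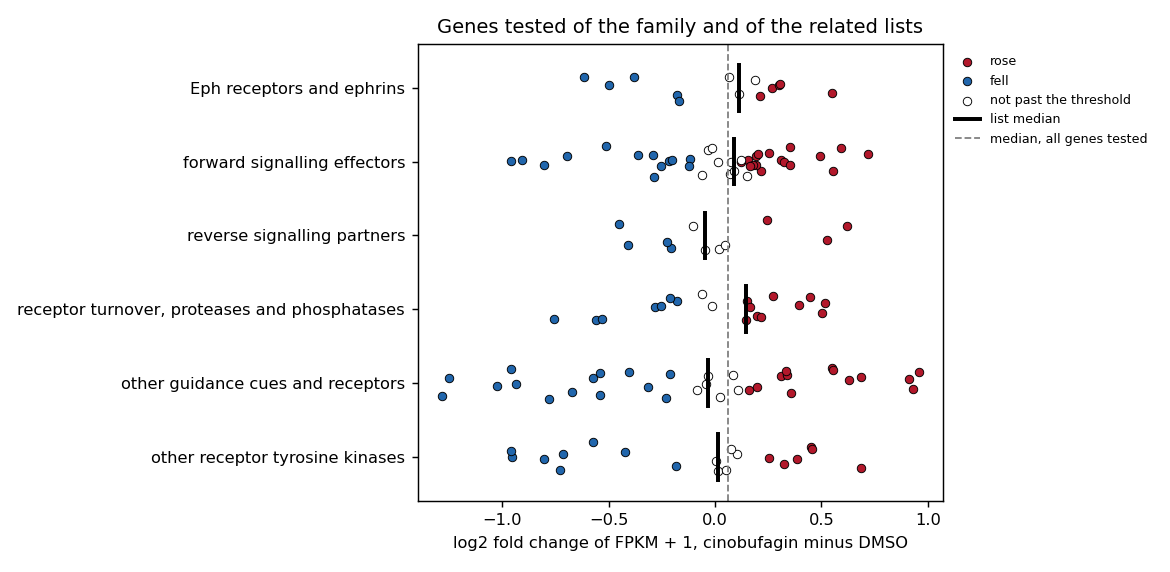
Log2 fold change of FPKM + 1 (cinobufagin minus DMSO) of each gene tested in the Eph and ephrin family and in 5 related lists; red points rose, blue points fell, white points did not pass, vertical offsets only separate points, and the black line is the list median. Every list has points on both sides of 0, and the dashed line is the median of all genes tested, 0.06.

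Markers of other cell types were low with few exceptions. Of 11 pigment epithelium markers, RPE65, RLBP1 and TTR were under 1 FPKM in every library, while the transcription factors OTX2 and MITF rose, to 74.5 and 56.3 FPKM in cinobufagin libraries, against 48.5 and 45.1 FPKM in DMSO libraries on average. The keratins KRT8 and KRT18 fell, to 316 and 232 FPKM in cinobufagin libraries, against 454 and 324 FPKM in DMSO libraries, and the melanosome protein PMEL fell to 1.38 FPKM in cinobufagin libraries, against 2.04 FPKM in DMSO libraries. TYR, which makes melanin, did not pass the filter and averaged 0.403 FPKM in cinobufagin and 1.03 FPKM in DMSO libraries, with every cinobufagin library lower. BEST1 and TYRP1 did not pass the test. The 11 summed to 690.9 to 693.7 FPKM in cinobufagin and 860.5 to 929.1 FPKM in DMSO libraries, mostly KRT8 and KRT18. All 5 endothelial markers analysed here, PECAM1, VWF, TEK, TIE1 and CLDN5, were under 1 FPKM in every library, with sums of 0.05 to 0.16 FPKM in cinobufagin and 0.34 to 0.35 FPKM in DMSO libraries, beside the vessel-linked EPHB4 and EFNB2. Of the 4 blood markers analysed, 3 were under 1 FPKM, and CD68 fell to a mean of 79.3 FPKM in cinobufagin libraries, against 118 FPKM in DMSO libraries. Of 4 neural markers, 3 were under 1 FPKM, and TUBB3 rose to 66.4 FPKM in cinobufagin libraries, against 38.3 FPKM in DMSO libraries. Of 5 mesenchymal markers, COL1A1, COL1A2 and THY1 were under 1 FPKM, PDGFRB did not pass the test, at 13.9 FPKM in cinobufagin and 13.7 FPKM in DMSO libraries, and VIM fell to 3409 FPKM in cinobufagin libraries, against 4975 FPKM in DMSO libraries. The part of these shifts in the Eph and ephrin values was not tested. Summed FPKM ranged from 534694 to 545499 in cinobufagin and from 538039 to 560721 in DMSO libraries, highest in DMSO replicate 1. Read totals were not given in the sources used here, so the depth behind each value is unknown.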

How the data were processed

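The deposited values are FPKM per gene for 6 libraries, per the file headers. They carry 2 decimals. Named in the submitters' processing notes are the build GRCh38.p13 and the tools RSEM 1.3.1, Bowtie2 and DESeq2 1.4.5, without the step each served. Control columns are headed mock and were matched by number to the DMSO samples. Of the table's entries, 19 without a gene ID were left out, 17945 genes remained, and 17881 matched a symbol in a RefSeq table of GRCh38.p14. No 2 libraries held identical values. The 11599 genes that reached 1 FPKM in 3 or more libraries were fitted as log2 of FPKM + 1 with limma 3.58.1 (mean-variance trend) in R 4.3.3, cinobufagin minus DMSO, with Benjamini-Hochberg adjustment over all genes tested and a threshold of 0.05. Fold changes on this scale understate those of low genes, and fold values given as such are ratios of mean FPKM. SE is the moderated standard error. The fit was tested on simulated data in which a far smaller share of genes changed than was called here. That run does not show how often calls are false in these data. Members and gene lists were chosen with earlier results of these data known. Named genes were all family genes, the 2 largest rises and falls past the threshold in each list (4 each for effectors), and the 3 genes closest to the most abundant member of each class. Alternatives were no trend, quantile normalization, median centring, rescaling to a common sum, no filter, a filter of 5 FPKM, a pseudocount of 0.1, a replicate block and leaving out each library. Figures were drawn with matplotlib 3.10.9.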

Additional observations from a re-analysis of the deposited data

How the results depend on the processing

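Under 14 alternatives the members gave 111 values, since EFNB1 could not be tested with a filter of 5 FPKM; 0 changed direction and 10 lost their call, in EPHB4, EFNB2 and EFNB1, with the causes not tested. EPHA2, EPHB2, EPHA4 and EFNA5 were called and EFNA1 was not under every alternative run. The number of members that fell was 2 in place of 4 when libraries were rescaled to a common sum, and that of the whole family was 3 in place of 5. Leaving out single libraries gave 3 members that fell each time and 2 to 3 that rose. The family's number that rose was 3 in place of 5 without cinobufagin replicate 1, and 2 with a filter of 5 FPKM, which tests 8 family genes in place of 13. That filter also left 9 falls in place of 14 among the other guidance genes, with 22 tested. Same-numbered libraries did not deviate together (correlations of -0.049, -0.105 and -0.00906 across genes), and no cinobufagin library correlated best with its own number. With 3 libraries per group, this cannot show whether same-numbered libraries shared a culture or a preparation. With a replicate block 3 members rose and 4 fell, and over all genes 4454 rose and 3236 fell in place of 4552 and 3297. No alternative moved the median log2 fold change of all genes tested beyond 0.01 to 0.09. The lower end came with no filter on low values and the upper end with rescaling to a common sum. Without read totals, counting error cannot be given for EFNB1 and other low genes.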
